A study of Homo sapiens with 4 samples.

Results

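TGF-beta and activin signalling genes were followed in A549 cells after knockdown of the transcription factor CEBPB. A549 is a lung cancer cell line of human adenocarcinoma origin, and the series title calls it NRF2-activated. The group holds 10 genes chosen by name, of 57820 in the deposited table: the ligand genes TGFB1, TGFB2, INHBA and INHBB, the receptor genes TGFBR1 and TGFBR2, the latent TGF-beta binding protein genes LTBP1 and LTBP2, the activin antagonist FST and the matrix protein TGFBI. All cells were transfected with siRNA and grown in DMEM with serum. The control group holds 2 libraries from cells given control siRNA, named control 1 and control 2 here. The knockdown group also holds 2 libraries, 1 from cells given CEBPB siRNA-1 and 1 from cells given CEBPB siRNA-2. Medium was changed after 24 h and RNA was taken 24 h later. The knockdown is transient and was made in a single cell line, and each siRNA is represented by 1 library, so the spread within the knockdown group includes the difference between reagents. Nothing in the labels says that the controls were separate cultures, and p-values therefore measure only the spread between these libraries, part of which may be technical.

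TGF-beta is secreted in a latent complex with its propeptide and a latent TGF-beta binding protein, which ties it to the extracellular matrix until integrins or proteases release it. Freed ligand binds the type II receptor TGFBR2, which activates the type I receptor TGFBR1, and SMAD2 and SMAD3 then carry the signal to the nucleus with SMAD4. Activins, dimers of the inhibin beta chains encoded by INHBA and INHBB, use other receptors of the same family but the same SMADs, and follistatin binds and neutralizes them. In lung epithelium the pathway is known for growth arrest, matrix production and the epithelial to mesenchymal transition.

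The libraries summed to between 494066 and 528606 FPKM, a length- and depth-scaled read measure, and listed 13752 to 14325 genes at 1 FPKM or more. The authors' mean normalized counts summed to 8341084, which stands for the depth of a library. The target, CEBPB, was at 78.7 and 80.9 FPKM in control cells, 12.9 under siRNA-1 and 10.97 under siRNA-2, in the direction the labels give. All 7 epithelial and A549 markers reached 1 FPKM, and their summed level was 6157 and 8216 FPKM in control cells, 3650 under siRNA-1 and 5530 under siRNA-2. They did not move together. Both siRNA libraries lay below both controls for KRT8, KRT18 and EPCAM, and the groups overlapped for CDH1, ALDH1A1 and AKR1B10. KRT19 was higher, at 2.41 and 3.28 FPKM in control cells, 5.32 under siRNA-1 and 7.38 under siRNA-2. Of 8 fibroblast markers 1, COL1A1, reached 1 FPKM. The list summed to 0.857 and 0.773 FPKM in control cells and to 4.83 and 2.92 in the siRNA libraries, with COL1A2 listed at 0 in all 4. PTPRC, CD3E, LYZ, VWF, CDH5 and KDR, defining markers of leukocytes and endothelium, were listed at 0 throughout. The leukocyte list also holds ITGAM, which was detected, at 1.07 and 0.570 FPKM in control cells, 2.25 under siRNA-1 and 0.728 under siRNA-2, with overlapping groups.

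In control A549 cells the levels of the 10 genes spanned a wide range, here compared in FPKM and so per length. TGFBI was the highest at 332 ± 3.28 FPKM (SD, n = 2). TGFBR2 followed at 41.8 ± 6.54 and TGFB1 at 40.5 ± 1.90 FPKM, and the control libraries of this pair overlapped, so their order is not set. INHBB came next at 20.6 ± 0.879 FPKM, above TGFB2 at 14.9 ± 0.709. LTBP1 at 6.29 ± 0.166, TGFBR1 at 3.70 ± 0.746 and LTBP2 at 1.54 ± 0.0472 FPKM were lower, each with control libraries apart from those of its neighbours in the order. FST was at 0.754 ± 0.312 FPKM, and INHBA was listed at 0 in both controls. INHBB was the activin chain above 1 FPKM in these cells, and TGFB1 the more abundant of the TGF-beta ligands among the 10 genes. Over all 4 libraries TGFB1 was at 2.36 to 2.91 times the FPKM of TGFB2.

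**Figure D1:**
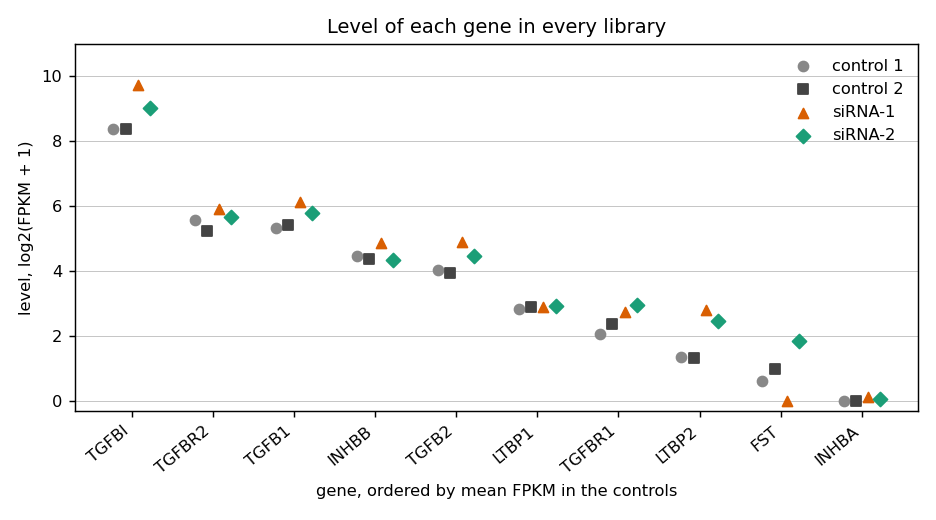
Level of the 10 genes in each of the 4 libraries, as log2(FPKM + 1) on the vertical axis, with genes ordered by mean FPKM in the controls on the horizontal axis and 1 symbol per library. The siRNA symbols lie above both control symbols for TGFBI, TGFBR2, TGFB1, TGFB2, TGFBR1 and LTBP2, and by little for LTBP1 and INHBA. Those of INHBB and FST lie on opposite sides of the controls.

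The comparison of CEBPB siRNA with control siRNA asked which of these genes depend on CEBPB in this line. LTBP2 and TGFBI were the genes that differed most, at 3.42 and 2.06 times the control mean, and the authors' deposited table calls both higher. The ligands TGFB1 and TGFB2 and the receptor TGFBR1 were at 1.52 to 1.71 times the control mean without passing in either table. TGFBR2 was at 1.31 times the control mean. LTBP1 was nearly level, and INHBA was barely detected in any library. INHBB and FST lay on opposite sides of the controls with the siRNAs, INHBB only just below them with siRNA-2.

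Of the 10 genes, 9 averaged 1 FPKM or more over the 4 libraries and were tested. INHBA was not tested, and FST met the limit through the siRNA-2 library. With limma and Benjamini-Hochberg adjustment, 0 of 9 passed 0.05, 5 had an unadjusted p below 0.05, and the smallest adjusted p was 0.129, for LTBP2. Over all genes tested, 0.235% passed the adjusted threshold (0.0640% as higher, 0.171% as lower) and 12.2% the unadjusted one. The authors' deposited table has an adjusted p for 9 of the 10 genes and calls 2 higher and 0 lower, where over all genes it calls 4.14%, of which 2.71% higher and 1.42% lower. In FPKM the siRNA libraries both lay above both controls for 7 of the 9 tested genes and for INHBA, and below them for 0. Over all tested genes that holds for 23.5% higher and 21.0% lower. The median log2 change was 0.58 over the 9 genes and 0.0010 over all tested genes, a description that rests on genes chosen with earlier results known. A bulk library cannot tell fewer cells of a kind from less RNA per cell.

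The limma result depends on how the siRNAs enter the fit. When siRNA-1 and siRNA-2 were separate groups, so that the spread came from the controls alone with 1 residual degree of freedom, LTBP2, TGFBI, TGFB2 and TGFB1 passed as higher, with limma adjusted p-values of 0.0243, 0.0152, 0.0427 and 0.0482. That fit calls 3.82% of all tested genes higher. The same number of these genes, 4 of 9, passed without the siRNA-2 library, where 6.18% of all tested genes were called higher. Without the siRNA-1 library 0 of 9 passed, and 0.199% of all tested genes were called higher. The fits without siRNA-1 or siRNA-2 leave 1 knockdown library, and the fit with separate groups has 1 library per siRNA. In each of them a knockdown library is assumed to vary as the controls do.

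Among the ligands, TGFB1 encodes the most widely expressed TGF-beta. It was at 39.2 and 41.9 FPKM in control cells, 68.8 under siRNA-1 and 54.1 under siRNA-2. The groups did not overlap, and siRNA-1 gave the higher value. The log2(FPKM + 1) change was 0.58 ± 0.18 (SE, n = 2 libraries per group; limma adjusted p = 0.301), and the authors' deposited table gives 0.59 with an adjusted p of 0.267. TGFB1 overlaps HNRNPUL1 and CCDC97 on the opposite strand in GENCODE 29. HNRNPUL1 was at 239 and 265 FPKM in control cells and 269 and 255 in the siRNA libraries, and CCDC97 at 26.4 and 22.5 against 18.8 and 19.3. The libraries were strand-specific, but whether the counting used the strand is not given in the sources used here.

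TGFB2, a ligand that depends on a co-receptor for tight binding to TGFBR2, was at 15.4 and 14.4 FPKM in control cells, 29.2 under siRNA-1 and 21.2 under siRNA-2. Both siRNA libraries again exceeded both controls, and by more with siRNA-1. Its change was 0.71 ± 0.21 (limma adjusted p = 0.277), against 0.77 in the authors' deposited table (adjusted p = 0.112). The TGF-beta gene outside the group, TGFB3, was at 1.58 and 2.09 FPKM in control cells, 0.643 under siRNA-1 and 1.89 under siRNA-2, so its groups overlapped.

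INHBB, whose product forms activin B, was at 21.2 and 19.95 FPKM in control cells, 28.2 under siRNA-1 and 19.2 under siRNA-2. It stood above both controls with the first siRNA and just under both with the second. The pooled change was 0.17 ± 0.23, with a 95% interval of -0.39 to 0.73 (limma adjusted p = 0.816), and the authors' deposited table gives 0.19. INHBA, the chain of activin A, had a listed level of 0 in each control and of 0.101 and 0.0520 FPKM in the siRNA libraries. Its mean normalized count in the authors' deposited table is 2.96, with no adjusted p, so no change can be read for it at this depth.

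Of the receptors, TGFBR1 is the type I kinase that phosphorylates SMAD2 and SMAD3. It was at 3.17 and 4.22 FPKM in control cells, 5.78 under siRNA-1 and 6.83 under siRNA-2. The groups did not overlap, and siRNA-2 gave the higher value. The change was 0.64 ± 0.22 (limma adjusted p = 0.342), and 0.83 in the authors' deposited table, where the adjusted p of 0.0858 also missed the threshold. TGFBR2, which binds the ligand, was at 46.4 and 37.1 FPKM in control cells, 59.4 under siRNA-1 and 49.8 under siRNA-2. The siRNA-2 library was only slightly above control 1, and the controls differed from each other by more than that. Its change was 0.38 ± 0.19 (limma adjusted p = 0.511; 0.37 in the authors' deposited table, adjusted p = 0.705). The ratio of TGFBR2 to TGFBR1 was 14.6 and 8.79 in control cells, 10.3 under siRNA-1 and 7.29 under siRNA-2, and these ranges overlapped.

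The latent binding proteins went different ways. LTBP1, a main carrier of latent TGF-beta, was at 6.17 and 6.41 FPKM in control cells, 6.50 under siRNA-1 and 6.68 under siRNA-2. The groups are separate in rank only, since all 4 values lay close together. The change was 0.06 ± 0.18 with a 95% interval of -0.40 to 0.52 (limma adjusted p = 0.931), and the authors' deposited table gives -0.0067. LTBP2, a matrix protein of elastic fibres that does not bind latent TGF-beta, was at 1.58 and 1.51 FPKM in control cells, 6.03 under siRNA-1 and 4.52 under siRNA-2. Each siRNA library held several times the control level, with little spread between the controls. The change was 1.29 ± 0.23 (limma adjusted p = 0.129), and the authors' deposited table gives 1.58 ± 0.31 (SE) with an adjusted p of 3.8e-05, from a mean normalized count of 239.8.

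The rest of this small family gives context. LTBP3, which also carries latent TGF-beta, was at 28.6 and 34.0 FPKM in control cells, 72.0 under siRNA-1 and 50.6 under siRNA-2. LTBP4 was at 14.7 and 12.7 FPKM in control cells, 33.4 under siRNA-1 and 28.2 under siRNA-2. Neither passed limma (log2 changes 0.93 ± 0.22 and 1.11 ± 0.18, adjusted p = 0.207 and 0.115), and both are called higher in the authors' deposited table (0.93 and 0.75, adjusted p = 0.0115 and 0.0460). LTBP1 was thus the family member not called in the authors' deposited table. Summed over LTBP1 to LTBP4, the level was 51.1 and 54.6 FPKM in control cells, 118 under siRNA-1 and 90.0 under siRNA-2. The share of LTBP1 in that sum was 12.1% and 11.7% in control cells and 5.51% and 7.43% in the siRNA libraries. LTBP2 had 3.09% and 2.77% against 5.11% and 5.02%, and LTBP3 had the largest share in every library, from 56.1% to 62.3%.

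FST encodes follistatin, the secreted antagonist of activins. It was at 0.533 and 0.975 FPKM in control cells. With siRNA-1 it was listed at 0, and siRNA-2 gave 2.65 FPKM. The siRNA libraries lay on opposite sides of the controls. The pooled change of 0.14 ± 0.62 had a 95% interval of -1.41 to 1.68 (limma adjusted p = 0.953), and rested on a mean normalized count of 20.7 in the authors' deposited table, which gives 0.69 ± 1.09 (SE).

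TGFBI, a secreted matrix protein named for its induction by TGF-beta, was at 334 and 330 FPKM in control cells, 845 under siRNA-1 and 520 under siRNA-2. The controls were close together, both siRNA libraries were well above them, and siRNA-1 gave the higher value. The group means were 332 ± 3.28 and 683 ± 230 FPKM (SD, n = 2). The change was 1.0 ± 0.25 with a 95% interval of 0.36 to 1.63 (limma adjusted p = 0.231). The authors' deposited table gives the same change, 1.0 ± 0.28 (SE), with an adjusted p of 0.0114 and a mean normalized count of 12431, the largest count of the 10 genes.

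**Figure D2:**
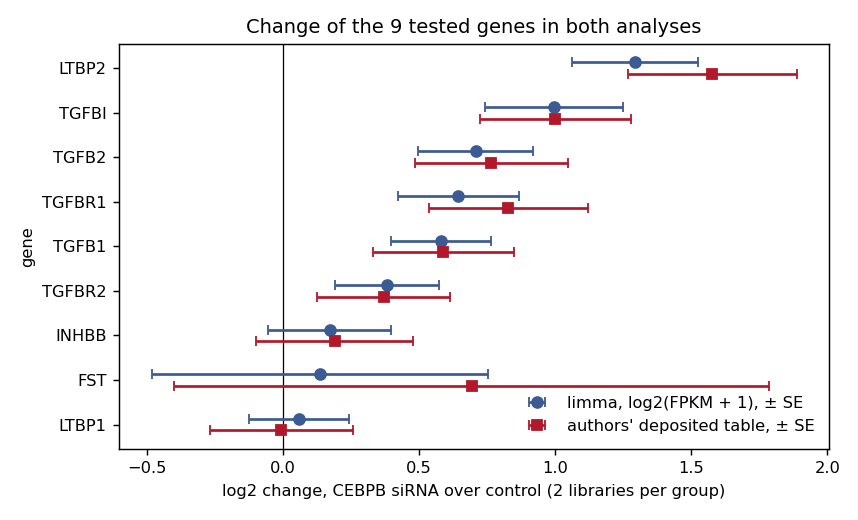
Log2 change of CEBPB siRNA over control for the 9 tested genes, from limma on log2(FPKM + 1) as circles and from the authors' deposited table as squares, with bars of 1 standard error; the horizontal axis is the log2 change. LTBP2 and TGFBI lie farthest to the right in both analyses, LTBP1 lies at 0, and FST has the widest bars.

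Promoter sequence was examined because CEBPB binds DNA directly. RefSeq windows of 300 bases on GRCh38.p14, from 250 bases before a transcription start to 50 after it, were matched by symbol for all 10 genes (20 windows, since several genes have more than 1 start). They are shown for the genes called higher in the authors' deposited table, LTBP2 and TGFBI, and for the window with the strict C/EBP match. That window belongs to an internal start of LTBP1, which is among the genes not called there. Capitals mark matches to the looser C/EBP form TTNNGNAA on either strand. The LTBP2 window is chr14:74612188-74612487 on the minus strand, the TGFBI window chr5:136028738-136029037 on the plus strand and the LTBP1 window chr2:33134119-33134418 on the plus strand.
LTBP2: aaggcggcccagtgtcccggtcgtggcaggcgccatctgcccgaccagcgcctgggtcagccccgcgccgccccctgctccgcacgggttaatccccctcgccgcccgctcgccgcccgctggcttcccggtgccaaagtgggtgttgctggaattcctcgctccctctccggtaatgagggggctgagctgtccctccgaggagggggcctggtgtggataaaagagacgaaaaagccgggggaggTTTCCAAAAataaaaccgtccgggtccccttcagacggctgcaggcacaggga
TGFBI: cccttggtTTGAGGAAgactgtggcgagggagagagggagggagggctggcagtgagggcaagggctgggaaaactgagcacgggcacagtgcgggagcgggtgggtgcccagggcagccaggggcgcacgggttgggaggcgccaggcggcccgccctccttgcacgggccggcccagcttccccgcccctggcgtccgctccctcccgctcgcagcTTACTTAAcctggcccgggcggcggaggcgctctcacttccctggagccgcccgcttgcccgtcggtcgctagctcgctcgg
LTBP1: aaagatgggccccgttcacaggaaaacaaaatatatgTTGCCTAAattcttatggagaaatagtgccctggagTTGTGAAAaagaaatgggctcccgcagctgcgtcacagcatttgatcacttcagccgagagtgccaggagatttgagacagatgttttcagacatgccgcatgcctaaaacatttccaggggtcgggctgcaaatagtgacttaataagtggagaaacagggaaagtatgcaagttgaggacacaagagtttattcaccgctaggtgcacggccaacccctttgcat

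The strict form TTGCNNAA, searched on both strands and contained in the looser form, was found in 1 of the 10 genes, as TTGCCTAA at position -213 from the internal LTBP1 start. Over all promoters in the table it occurs in 12.7% of genes and 10.5% of windows. The looser form was found in 7 of the 10 genes and in 10 of their 20 windows, against 41.8% of all genes and 36.8% of all windows. All 27305 genes have 35116 windows, fewer per gene than the 10 genes have, so the shares of genes are not directly comparable. The 20 windows are not independent. TGFBR1 has more of them than any other of the 10 genes, some overlap, and most of its windows hold neither form. The TGFBR2 windows overlap and share a match, TTGAGTAA, which counts in both. In LTBP2 overlapping matches begin at positions -3 and -2 from the start, and in TGFBI matches begin at -242 and -32. The windows of TGFB1, TGFB2 and INHBB hold neither form. These matches describe letters in a window on a build that the expression table does not use, and say nothing on whether CEBPB binds there.

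The siRNAs were compared with each other because both were directed at CEBPB. Of the 9 tested genes, 6 stood higher with siRNA-1 than with siRNA-2. FST met the limit for testing through the siRNA-2 library. Its difference and its place in the counts of this paragraph are therefore a description and no support. TGFBI showed a log2 difference (siRNA-1 minus siRNA-2) of 0.70 ± 0.15 (limma adjusted p = 0.0927), with a 95% interval of 0.32 to 1.08. INHBB differed by 0.54 ± 0.17 (limma adjusted p = 0.171). FST differed by -1.87 ± 0.32 (limma adjusted p = 0.0740). In this fit 0 of 9 passed limma after adjustment and 3 had an unadjusted p below 0.05, where 0.441% (0.114% higher with siRNA-1, 0.327% lower) and 22.4% of all tested genes did. For LTBP2 the difference was 0.35 with a 95% interval of -0.29 to 0.99, for TGFB1 0.34 ± 0.15 and for TGFB2 0.44 ± 0.17. LTBP1 (-0.04) and TGFBR1 (-0.21) stood a little higher with siRNA-2. The median difference from the control mean over the 9 genes was 0.54 under siRNA-1 and 0.48 under siRNA-2, beside -0.034 and 0.040 over all tested genes. Both use the same controls.

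**Figure D3:**
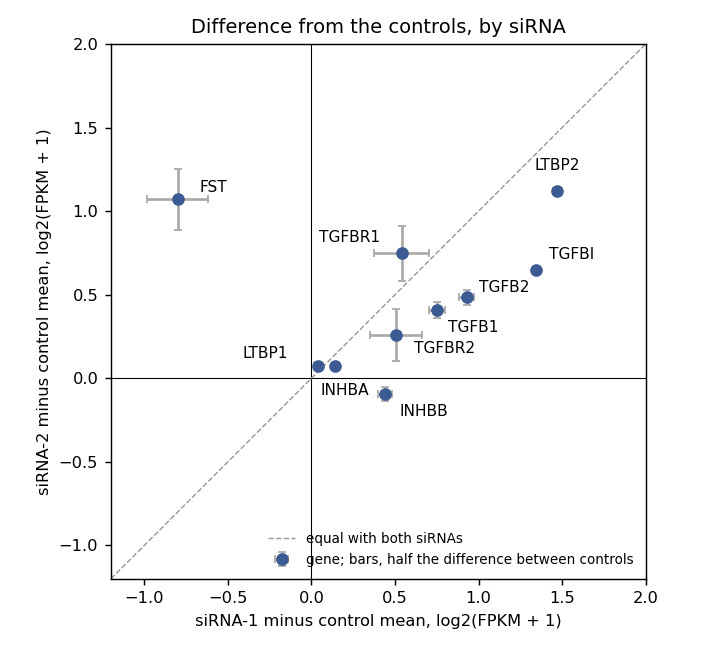
Difference of each siRNA library from the control mean in log2(FPKM + 1), siRNA-1 on the horizontal and siRNA-2 on the vertical axis, 1 point per gene. Bars extend from each point by the distance of a control library from the control mean. LTBP2, TGFBI, TGFB1, TGFB2, TGFBR1 and TGFBR2 lie above 0 on both axes, and LTBP1 and INHBA do so by little. INHBB lies below 0 for siRNA-2 and FST below 0 for siRNA-1.

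The remaining pathway genes were taken from 6 lists of 81 genes, of which 53 were tested. With limma 0 passed after adjustment, while 19 were higher and 3 lower at an unadjusted p below 0.05 (7.07% and 5.13% of all tested genes). The authors' deposited table, which has an adjusted p for 61 of them, calls 16 higher and 2 lower, against the 2.71% and 1.42% given above. In the 3-group fit 25 of the 53 passed, where 6.90% of all tested genes did. Without the siRNA-1 library 1 of the 53 passed, where 0.512% of all tested genes did. The lists' median log2 change was 0.54, and it was 0.77 under siRNA-1 and 0.31 under siRNA-2. ITGB6, COL1A1 and PDGFB met the limit for testing through the siRNA libraries, where they were high. The counts and medians of this paragraph are therefore a description and no support.

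Genes of latency and activation had a median change of 0.93. Of 9 tested, 8 had both siRNA libraries above both controls (23.5% of all tested genes), and 6 of the 11 with an adjusted p in the authors' deposited table are called higher there (2.71% of all genes) and 0 lower. Besides LTBP3 and LTBP4 these are ITGAV and ITGB6, the chains of an integrin that frees latent TGF-beta, THBS1, a matrix protein that can activate it, and FBN2, a fibrillin that anchors the latent complex. ITGAV was at 24.5 and 23.2 FPKM in control cells, 82.2 under siRNA-1 and 33.6 under siRNA-2. ITGB6 was listed at 0 in control 1 and was at 0.138 FPKM in control 2, 6.57 under siRNA-1 and 0.406 under siRNA-2, so its level rests mostly on siRNA-1. ITGB6 passed the limit for testing through that library, so the count above is a description and no support. THBS1 was even between the siRNAs, at 10.4 and 10.2 FPKM in control cells and 18.3 and 17.9 in the siRNA libraries. FBN2 was at 1.17 and 1.89 FPKM in control cells, 4.89 under siRNA-1 and 7.38 under siRNA-2.

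The ligands and receptors outside the 10 genes showed little of this. Of 12 other ligands 3 were tested, with a median change of -0.38, which was -0.78 under siRNA-1 and 0.031 under siRNA-2. The authors' deposited table calls GDF15, a stress-induced member of the superfamily with a receptor of its own, lower (-1.45, adjusted p = 0.0310). GDF15 was at 137 and 83.1 FPKM in control cells, 19.4 under siRNA-1 and 63.7 under siRNA-2. Of 9 other receptors and co-receptors 5 were tested, with a median of -0.034 (0.59 under siRNA-1 and -0.33 under siRNA-2) and 0 calls in limma (1 at an unadjusted p below 0.05) or in the authors' deposited table. The activin type I receptor ACVR1B was at 13.9 and 13.4 FPKM in control cells, 5.63 under siRNA-1 and 8.94 under siRNA-2 (log2 change -0.85 ± 0.25, limma adjusted p = 0.274; adjusted p = 0.0628 in the authors' deposited table). ACVR1, a type I receptor mainly of BMPs, was at 5.00 and 4.21 FPKM against 11.9 and 5.30. The list of inhibitors at the membrane or outside the cell also holds TGFBRAP1, a receptor-associated protein. Of its 7 genes 4 were tested, namely FSTL3, FSTL1, BAMBI and TGFBRAP1. In limma 0 were called (0 also at an unadjusted p below 0.05), and 0 in the authors' deposited table. FSTL3, a follistatin relative, was at 50.2 and 45.8 FPKM in control cells, 130.5 under siRNA-1 and 57.6 under siRNA-2, a level far above that of FST. The decoy receptor BAMBI was at 11.1 and 11.7 FPKM against 9.04 and 4.59.

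All 15 SMADs and SMAD regulators were tested, with a median change of 0.16, which was 0.050 under siRNA-1 and 0.28 under siRNA-2. The authors' deposited table calls 2 of them higher (2.71% of all genes) and 0 lower. PMEPA1, a TGF-beta target that restrains SMAD activation, was at 12.2 and 14.3 FPKM in control cells, 28.6 under siRNA-1 and 48.6 under siRNA-2 (log2 change 1.52 in the authors' deposited table, adjusted p = 2.4e-05). SMURF2, a ubiquitin ligase for the receptors and SMADs, was at 6.69 and 5.52 FPKM in control cells, 38.1 under siRNA-1 and 10.4 under siRNA-2 (1.66 in the authors' deposited table, adjusted p = 0.0039). SMAD3 was at 73.8 and 54.2 FPKM in control cells and 161.5 and 88.7 in the siRNA libraries (limma log2 change 0.91 ± 0.32, adjusted p = 0.350). SMAD2 and SMAD4 overlapped between the groups.

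Of 25 known TGF-beta targets 17 were tested, with a median change of 1.07, and 13 had both siRNA libraries above both controls and 2, FN1 and MMP2, below them (23.5% and 21.0% of all tested genes). COL1A1 and PDGFB passed the limit for testing through the siRNA libraries, so these counts too are a description. The authors' deposited table calls 8 of 20 higher and 1 lower, where over all genes it calls 2.71% and 1.42%. CTGF was at 6.77 and 5.99 FPKM in control cells, 16.5 under siRNA-1 and 20.5 under siRNA-2, and CYR61 at 21.1 and 18.9 against 147 and 52.2; both are also known targets of YAP. CTGF came closest to passing limma of all 53 genes (log2 change 1.39 ± 0.20, adjusted p = 0.0983). TPM1, a tropomyosin, was at 381 and 371 FPKM in control cells and 954 and 704 in the siRNA libraries. COL1A1 was at 0.717 and 0.573 FPKM against 4.22 and 2.23, the integrin chain ITGA5 at 15.2 and 11.3 against 46.0 and 20.9, and the chromatin protein HMGA2 at 14.1 and 8.12 against 32.0 and 20.1. The growth factor PDGFB was at 0.149 and 0.216 FPKM in control cells, 31.6 under siRNA-1 and 2.698 under siRNA-2, and the protease MMP9 had 0.807 and 1.32 FPKM in the siRNA libraries and a listed 0 in each control. FN1, fibronectin, is the target called lower, at 49.9 and 63.5 FPKM against 27.9 and 33.9. Several of these genes also mark mesenchymal cells. The fibroblast list given above has COL1A1 as its only member over 1 FPKM, but it does not hold VIM, ACTA2 or TAGLN. VIM was at 355 and 403 FPKM in control cells, 1054 under siRNA-1 and 523 under siRNA-2. ACTA2 was at 4.71 and 3.36 FPKM against 9.54 and 9.48, and TAGLN at 0.955 and 1.89 against 2.35 and 3.47. None of these is called in the authors' deposited table, and FN1 and MMP2 went the other way. The part of other cell types in the result was not tested.

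**Figure D4:**
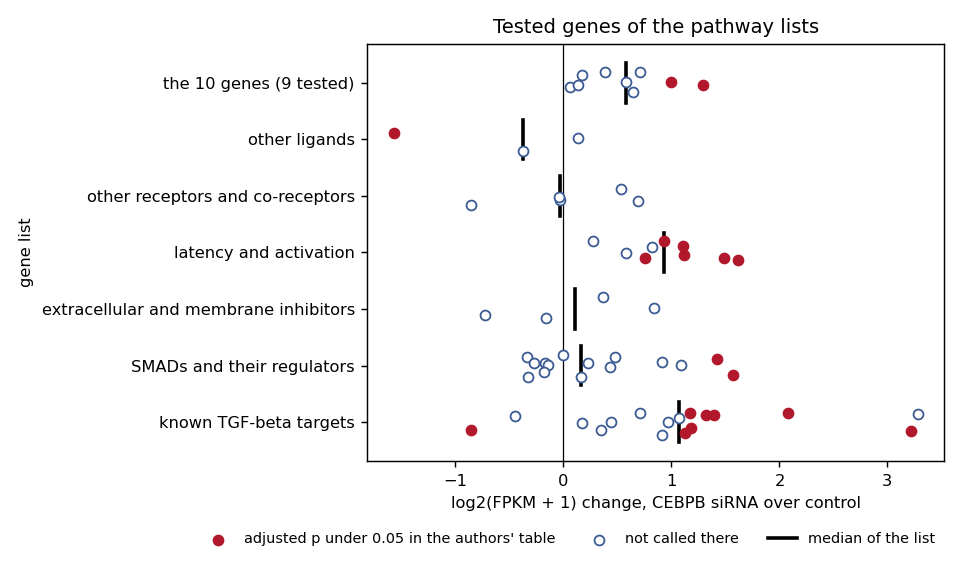
Log2(FPKM + 1) change of CEBPB siRNA over control on the horizontal axis for the tested genes of the group and of 6 pathway lists, 1 row per list and 1 point per gene (vertical scatter within a row carries no value). Filled points are called in the authors' deposited table, bars are medians: they lie at 0.93 for latency and activation and 1.07 for known targets, and at -0.38 for other ligands, where the median was -0.78 under siRNA-1 and 0.031 under siRNA-2.

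Over the 4 libraries, the genes whose pattern came closest to that of LTBP2 were the cell adhesion gene CADM4, the matrix gene EDIL3 and the phospholipase gene PLCE1. Likeness was the Euclidean distance between deviations of log2(FPKM + 1) from each gene's own mean, among tested genes that averaged 5 FPKM or more, and it was 0.0666, 0.0737 and 0.0779. CADM4 was at 3.43 and 3.08 FPKM in control cells and 10.6 and 7.98 in the siRNA libraries. With 4 libraries such a match is weak and serves as a description only.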

How the data were processed

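Expression was measured by strand-specific RNA-seq, read as 76-base single-end reads, per the labels. Per the submitters' processing notes the tools were STAR 2.7.0d, StringTie 2.1.4, HTSeq 0.13.5 and DESeq2 1.26.0 with the build hg19; no role or order is given. The deposited table gives 1 value per library and gene, taken as FPKM as the authors' StringTie-style headers and unequal column sums point to; the header names no unit. Per the file headers the authors' other columns are a DESeq2 result: mean normalized count (a signal), log2 fold change with its standard error, Wald statistic (a score), and p-value with adjusted p-value. These are quoted as the authors' deposited values.

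Groups were tested in R 4.3.3 with limma 3.58.1 (trend option) on log2(FPKM + 1), for the 14068 genes that averaged 1 FPKM or more, Benjamini-Hochberg adjustment over all of them and a threshold of 0.05. This scale compresses changes of genes near 0. Residual degrees of freedom were 2, with a prior of 3.61. Both siRNAs form 1 group; a fit with 3 groups compared them. The test was tested on simulated data. An exact permutation test of 2 against 2 libraries cannot go below p = 0.333. Members and lists were chosen with earlier results of these data known. Named outside the 10 genes were, per list, up to 4 genes past limma or the 2 with the smallest p, and every gene the authors' table calls. SMAD2, SMAD4, MMP2, VIM, ACTA2, TAGLN, FSTL1, TGFBRAP1, ITGAM and the single epithelial markers were added with their values known. Some items are not reported here. The labels give no batch. Alternatives were the pseudocount, filter, scaling, replicate block, 3 groups and leaving out each library. RefSeq promoters (GRCh38.p14) and GENCODE 29 gave sequences and overlapping gene names only. Protein sequences were not used here.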

Additional observations from a re-analysis of the deposited data

Results flagged for a closer look

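INHBB and FST drew attention because the siRNAs, aimed at the same gene, fell on opposite sides of both controls. INHBB lay just under both controls with siRNA-2, at 19.2 FPKM against 21.2 and 19.95. FST was listed at 0 with siRNA-1 and met the limit for testing through the siRNA-2 library, so its difference is a description only. For INHBB the log2 difference of siRNA-1 minus siRNA-2 was 0.54 (limma adjusted p = 0.171). For FST it was -1.87 (limma adjusted p = 0.0740), from a mean normalized count of 20.7 in the authors' deposited table. Each siRNA has 1 library, and neither difference passed the threshold.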

How the results depend on the processing

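The direction of TGFB1, TGFB2, TGFBR1, TGFBR2, LTBP1, LTBP2 and TGFBI held in every alternative that kept the gene. Of 97 recomputed changes of the 9 tested genes, 85 kept direction and side of the threshold, 8 newly passed (in the fit with 3 groups and without siRNA-2) and 4 turned sign. These were INHBB without siRNA-1 (-0.096) and FST with a pseudocount of 0.1 (-0.65), without control 1 (-0.047) and without siRNA-2 (-0.80). FST ranged from -0.80 to 1.07 and INHBB from -0.096 to 0.44 on leaving out libraries. The LTBP1 difference between siRNAs turned to 0.046 with median-of-ratios scaling. Among other genes TGFB3 reached 0.031 without siRNA-1 and -0.78 without siRNA-2. The 33 genes called in limma became 0 with no filter and 971 with 3 groups, and 0 to 1764 on leaving out a library, lowest without control 1 or control 2 (736 and 685 at an unadjusted p below 0.05) and highest without siRNA-2. Calls in the group of 10 went from 0 to 4 with 3 groups and ranged from 0 to 4 on leaving out a library; in the pathway lists they went to 25 and ranged from 0 to 27. Between the siRNAs, 62 calls became 1 with a pseudocount of 0.1, 1915 with no filter and 163 with median-of-ratios scaling. The looser motif matched 7 genes in place of 1. The CEBPB call was lost with no filter and without control 1 or control 2. With the title numbers as a replicate block, 25 genes were called and 0 of the 9; same-numbered deviations correlated at 0.075 across genes, so the numbers are not shown to pair the libraries, and with 2 numbers they cannot be. FST and INHBA have mean normalized counts of 20.7 and 2.96 in the authors' deposited table, so small differences in them are not detectable. The cause of these shifts was not tested.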
